A study of Homo sapiens with 4 samples.

Results

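The 32 genes described here encode chaperones and folding enzymes of the endoplasmic reticulum (ER), its degradation machinery, and the sensors and transcription factors of the unfolded protein response. They were chosen by name from what their proteins do, out of 34080 genes with a transcript in the tables. No measured value entered the choice as a rule, but earlier results of these data were known. All 32 were expressed highly enough to be tested. The cells were HK-2, an immortalized line of human renal proximal tubule cells, carrying a Tet-On 3G system from which doxycycline switches on HA-PRCC-TFE3. PRCC-TFE3 is the fusion of PRCC and the transcription factor TFE3 found in a subset of renal cell carcinomas, and HA is a peptide tag. All cultures carried the transgene and were kept in advanced DMEM/F-12 medium with low serum, and 2 libraries of polyadenylated RNA were made from cells given 0.2 microg/ml doxycycline for 24 h, Doxy(+), and 2 from cells given none, Doxy(-). The comparison asks which transcripts changed when the fusion was switched on. HK-2 cells without the transgene were not analysed here, so doxycycline itself and PRCC-TFE3 cannot be told apart. The sources do not say that the line was 1 clone, nor that the 2 libraries of a group came from separate cultures, so p-values measure the spread between these libraries, which may be technical.

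Secretory and membrane proteins enter the ER through the Sec61 channel, where BiP (HSPA5), GRP94 (HSP90B1) and the lectin chaperones calnexin and calreticulin hold them while disulfide isomerases form and rearrange their cysteine bonds. Proteins that fail to fold are drawn back to the cytosol and destroyed by ER-associated degradation (ERAD). When unfolded proteins accumulate, IRE1 (ERN1), ATF6 and PERK (EIF2AK3) signal to the nucleus, and XBP1 and the cleaved form of ATF6 raise chaperone, oxidoreductase and ERAD transcripts, classically as a group led by HSPA5. Proximal tubule cells handle a heavy load of membrane and secretory protein and depend on this machinery.

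TFE3, on whose transcripts the quantifier would also place reads of the fusion, stood at 66.9 CPM (reads of a gene in each 1000000 assigned to genes, after TMM correction of library size) in Doxy(-) 1, 69 in Doxy(-) 2, 367.2 in Doxy(+) 1 and 321.7 in Doxy(+) 2. The difference on the log2 scale was 2.34 (SE 0.0720), with an adjusted p from edgeR of 4.78e-05. Pairs of values below are given in the order of libraries 1 and 2. The libraries held 14042545 to 16618401 estimated reads, and the biological coefficient of variation common to all genes was 6.53%. Of the renal markers, PAX8 stood at 564.5 to 604.8 CPM and GGT1 at 68.7 to 86.1, while the differentiated tubule markers LRP2, AQP1, ANPEP and SLC22A6 were at or near 0 in every library. The leukocyte and endothelial markers CD3E and CDH5 were at 0, and PTPRC, PECAM1 and VWF stayed below 1 CPM. The epithelial keratins KRT8, KRT18 and KRT19 fell in Doxy(+), by 0.24, 0.24 and 0.41 on the log2 scale (edgeR adjusted p = 0.00376, 0.0142 and 0.000779). Whether that change in the cells has a part in the results below was not tested. In bulk RNA, fewer cells of a type and less RNA per cell cannot be told apart.

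Of the 32 genes, 6 rose in Doxy(+) and 0 fell at an edgeR adjusted p under 0.05: CALR, CANX, DNAJC3, ERO1B, SEL1L and EDEM1. That is 18.8% of the genes rising, against 9.76% of all 13569 tested genes called higher, while 9.53% of all genes were called lower. With a mean of at least 10 CPM, 20% of 30 of these genes and 11.9% of all 9610 were called higher. HSPA5, the classical reporter of ER stress, was not among them, and neither were GRP94, the isomerases PDIA3, PDIA4, PDIA6 and P4HB, HERPUD1, XBP1 or the stress sensors. None of the 32 passed the limit the study used, which adds a log2 fold change over 1 in size, and 1.98% of all tested genes did. At an unadjusted edgeR p under 0.05, 8 genes were higher and 3 lower. That is 11 of the 32, a similar share to the 4528 of all 13569 tested genes. DESeq2 also called 0 lower after adjustment, with 3 lower before it. The changes were small: the median log2 fold change was 0.05 over the 32 genes and 0.0006 over all tested genes, and the median size regardless of sign was 0.08 against 0.17. Where the mean reached 10 CPM, the median size was 0.07 for the 30 that reached it and 0.14 for all 9610. The 6 calls rested partly on both induced libraries. Without Doxy(+) 1 only CALR kept its call, which is 3.12% of the 32 genes against 4.64% of all genes called higher in that fit. Without Doxy(+) 2 CALR and ERO1B kept theirs, 6.25% against 4.92%. The sizes moved less than the calls: without Doxy(+) 1 and without Doxy(+) 2, CANX was at 0.18 and 0.20, SEL1L at 0.20 and 0.19 and DNAJC3 at 0.36 and 0.31. When counts were scaled by transcript length, or TPM was tested with limma, only CALR was called, 3.12% of the 32 genes against 4.92% of all genes with length scaling and 4.43% to 4.49% under limma. The higher share of the 32 genes than of all genes was therefore lost with length scaling, under limma and without Doxy(+) 1. Without Doxy(+) 2 the share of the 32 genes lay close to that of all genes.

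**Figure D1:**
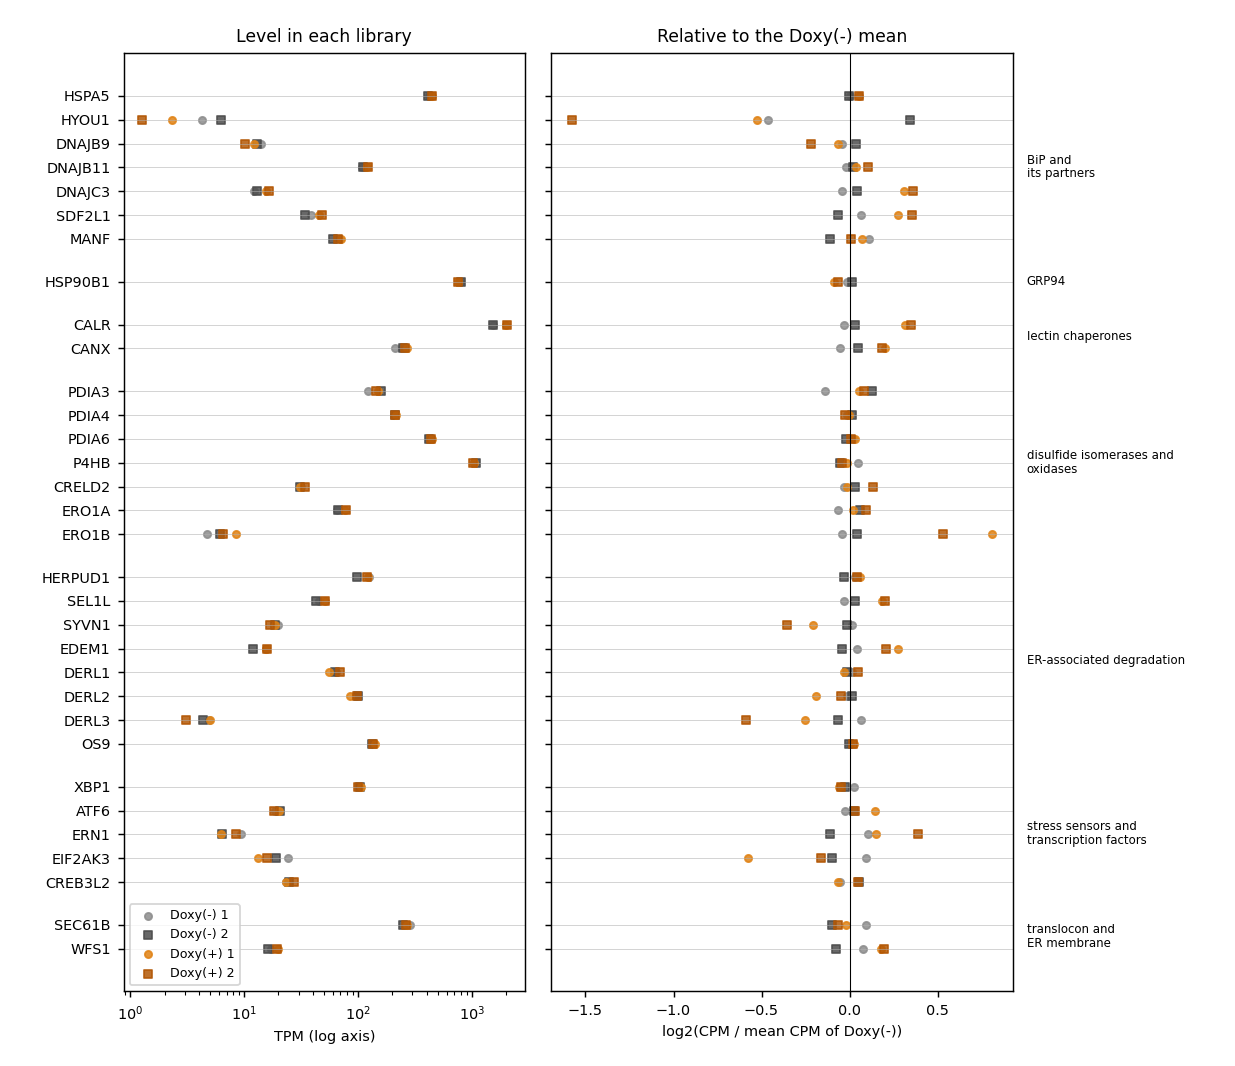
The left panel plots the level of each of the 32 genes in each library in TPM (transcript abundance per length, scaled to a library total of 1000000, log axis), and the right panel plots the log2 ratio of each library's CPM to the Doxy(-) mean. Each point is 1 library, grey for Doxy(-) and orange for Doxy(+), and rows are grouped by role. CALR is the most abundant at a mean of 1769 TPM, and HYOU1 and PDIA4 are plotted without their unmatched reference transcripts. In the right panel both orange points of CALR, CANX, DNAJC3, ERO1B, SEL1L and EDEM1 lie to the right of both grey points.

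Levels between genes can be compared on the TPM scale, which is per length. By mean TPM over the 4 libraries the most abundant was CALR at 1769, followed by P4HB at 1048, HSP90B1 at 772.5, PDIA6 at 434.1 and HSPA5 at 431.9. The least abundant were ERN1 at 7.61, ERO1B at 6.47 and DERL3 at 4.33, though no DERL3 counts lay on its reference transcript. HYOU1 was listed lower, at 3.52, but its reference transcript was not matched in the tables, so it has no place in this order. PDIA6 and HSPA5 could not be ordered, since PDIA6 lay between 422.1 and 447.9 TPM and HSPA5 between 414.5 and 447.1. Together the 32 genes took 6089 and 6117 TPM in Doxy(-) 1 and 2 and 6645 and 6628 in Doxy(+) 1 and 2, a ratio of group means of 1.09. Most of that difference lay in 1 gene: CALR alone went from a mean of 1531 to a mean of 2007 TPM. The isomerases and oxidases summed to 1941 TPM in Doxy(-) and 1951 in Doxy(+), and the sensors and transcription factors to 176.6 and 169.5.

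The lectin chaperones were the role in which every gene listed, CALR and CANX, rose. CALR (chr19:12938578-12944489, hg38) encodes calreticulin, a soluble calcium-binding chaperone that recognizes glycoproteins carrying a single terminal glucose. Its values were 1809 and 1889 CPM without doxycycline and 2297 and 2358 CPM with it. The induced libraries lay above both controls, with a log2 fold change of 0.33 (SE 0.0317, 95% interval 0.25 to 0.41, edgeR adjusted p = 0.00147), which is 25.9% higher. It is the gene called under all 14 alternative analyses, with a log2 fold change between 0.30 and 0.39. CANX (chr5:179678628-179731641) encodes calnexin, the membrane-bound counterpart of calreticulin. The controls had 399.9 and 429.3 CPM and the induced libraries 476.6 and 471.4, a log2 fold change of 0.19 (SE 0.0409, 95% interval 0.09 to 0.29, adjusted p = 0.0238). The 2 control libraries of CANX differed from each other by more than the 2 induced ones, and all 4 values kept the groups apart. Its reference transcript CANX-201 took 85.2% of its counts in Doxy(-) and 78.2% in Doxy(+). In TPM that transcript overlapped between groups, at 112.4 and 129.6 against 134.8 and 127.6. CANX-202 stood at 20.57 and 9.5 against 27.23 and 33.4 TPM. These values are the quantifier's division of reads.

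BiP and its partners showed 1 gene called of 7. HSPA5 (chr9:125234853-125241382), the Hsp70 of the ER lumen, stood at 1117 and 1109 CPM in the controls and at 1155 in each induced library. The groups did not overlap, but the log2 fold change was 0.05 (SE 0.0253, 95% interval -0.01 to 0.12, adjusted p = 0.202), so that a rise of more than 0.12 lies outside the interval. DNAJC3 (chr13:95677139-95794988), a lumenal J-domain co-chaperone of BiP also known as p58IPK, was at 42.1 and 44.6 CPM in the controls and at 53.7 and 55.7 in the induced libraries. It rose by a log2 fold change of 0.33 (SE 0.0601, 95% interval 0.19 to 0.48, adjusted p = 0.0138), with both induced libraries above both controls. SDF2L1, which joins BiP complexes with J-domain proteins, had nearly as large a difference, at 20.4 and 18.6 CPM without and 23.6 and 24.9 CPM with doxycycline, but was not called (0.32, SE 0.0916, adjusted p = 0.0624). The other J-domain partners did not pass the test either. DNAJB11 stood at 123.4 and 127 against 128.2 and 134.7 CPM (0.07, adjusted p = 0.337), and DNAJB9, a co-chaperone that also restrains IRE1, at 20.2 and 21.3 against 19.9 and 17.9 CPM (-0.14, adjusted p = 0.385). MANF, a secreted survival factor that binds BiP, overlapped between groups at 23.8 to 27.7 CPM (0.04, adjusted p = 0.819), and identifiers left unmatched to a gene hold 4 copies of its transcripts. HYOU1, the large Hsp70-related nucleotide exchange factor of BiP, was counted at 1.86 and 3.25 CPM without and 1.78 and 0.858 with doxycycline (-0.94, SE 0.457, adjusted p = 0.211). That level is not informative for the gene, because its reference transcript HYOU1-218 was not matched in the tables and no matched model exceeded 2464 bases.

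GRP94, the Hsp90 of the ER encoded by HSP90B1, pointed down while calreticulin pointed up. The controls held 1283 and 1308 CPM and the induced libraries 1218 and 1236, with no overlap. The log2 fold change was -0.08 (SE 0.0268, 95% interval -0.14 to -0.01), and the adjusted p of 0.0984 missed the threshold. It was called lower without Doxy(-) 1 (-0.10, adjusted p = 0.0301). As a description with no test, the CALR to HSPA5 ratio on the TPM scale was 3.64 and 3.70 in the controls against 4.45 and 4.53 after induction, and the HSP90B1 to HSPA5 ratio was 1.88 and 1.94 against 1.68 and 1.67.

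Among the disulfide isomerases and oxidases 1 of 7 rose. ERO1B (chr1:236214681-236282019), an oxidase that returns protein disulfide isomerase to its oxidized form, had the largest difference of all 32 genes in the positive direction. Its level went from 12.4 and 13.2 CPM to 22.4 and 18.5, a log2 fold change of 0.67 (SE 0.124, 95% interval 0.37 to 0.98, adjusted p = 0.0148) and 59.5% above the control mean. The induced libraries lay above both controls but differed from each other, and the call was lost without Doxy(+) 1 with length-scaled counts and when TPM was tested, where the values were 4.76 and 6.13 against 8.42 and 6.55. Its widely expressed paralog ERO1A stood at 137 and 149.4 against 144.9 and 152.8 CPM, with overlapping groups (0.06, 95% interval -0.08 to 0.19, adjusted p = 0.547). The isomerases themselves showed no called change. Intervals were narrow for P4HB, PDIA6 and PDIA4 and wider for PDIA3 and CRELD2. P4HB, the founding protein disulfide isomerase, stood at 1064 to 1143 CPM over all libraries (-0.03, 95% interval -0.12 to 0.07), PDIA6 at 592 to 612.4 (0.02, -0.05 to 0.09) and PDIA4 at 391.6 to 401.6 (-0.02, -0.09 to 0.06). The reference transcript of PDIA4, PDIA4-204, was not matched, so its values come from its other models. PDIA3, the isomerase that works with calnexin and calreticulin, ranged from 79.2 to 95.1 CPM, and both extremes were controls (0.07, 95% interval -0.14 to 0.28). Its reference transcript PDIA3-201 took 32.7% of its counts in Doxy(-) and 35.7% in Doxy(+). PDIA3-204, a model of 725 bases, held 596.1 to 944.7 estimated counts. CRELD2, an ER-resident isomerase-like protein induced by ER stress, stood at 26.8 and 28 against 27.1 and 30 CPM (0.06, adjusted p = 0.658). These groups overlapped in all 5 genes, and exons of PDIA3, PDIA6 and CRELD2 overlap those of neighbouring genes, whose reads the quantifier may have divided.

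In ERAD 2 of 8 genes rose. SEL1L (chr14:81471547-81533853), the scaffold that stabilizes the HRD1 ubiquitin ligase, had 149.2 and 156 CPM in the controls and 173.7 and 175.1 after induction (log2 fold change 0.19, SE 0.0401, adjusted p = 0.0225). EDEM1 (chr3:5187646-5219958), which marks misfolded glycoproteins for disposal by trimming mannose, stood at 47.8 and 45.2 against 56.2 and 53.6 CPM (0.24, SE 0.0609, adjusted p = 0.0419). The induced libraries lay above both controls for each, although DESeq2 did not call EDEM1 and its TPM, at 15.4 and 12 against 15.4 and 15.8, met between the groups. The ligase that SEL1L holds, HRD1 itself (SYVN1), lay the other way: 36.7 and 36.1 CPM in the controls against 31.5 and 28.5, with no overlap. Its log2 fold change was -0.28 (SE 0.0747, 95% interval -0.46 to -0.09) and its adjusted p of 0.0502 lay at the threshold, so that it was called lower with RLE size factors, with no low-count filter and with a filter at a mean of 1 CPM, but not by DESeq2 (adjusted p = 0.113). With length scaling it was at -0.15 (adjusted p = 0.427) and under limma at -0.11 and -0.12 (adjusted p = 0.563 and 0.554). SYVN1 shares exon sequence with FAU on the same strand. The derlins, membrane proteins of the retrotranslocation channel, were not called. DERL1 overlapped at 80.1 to 84.8 CPM (0.01, 95% interval -0.12 to 0.14), DERL2 stood at 53.8 and 54.9 against 47.5 and 52.5 CPM (-0.12, adjusted p = 0.273), and DERL3, expressed mainly in secretory cells, at 5.51 and 5.04 against 4.43 and 3.50 CPM (-0.41, adjusted p = 0.241). The reference transcript DERL3-202 took 0% of the DERL3 counts in both groups, and DERL3 exons overlap those of SMARCB1 on the other strand. HERPUD1, a stress-induced membrane adaptor of ERAD, stood at 94.8 and 90.9 against 96.7 and 95.8 CPM (0.05, 95% interval -0.06 to 0.17), and OS9, a lectin that delivers glycoproteins to the ligase, at 208.4 and 207.9 against 212 and 210.8 CPM (0.02, 95% interval -0.06 to 0.10). For both the groups were apart by a few CPM and the intervals included 0.

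**Figure D2:**
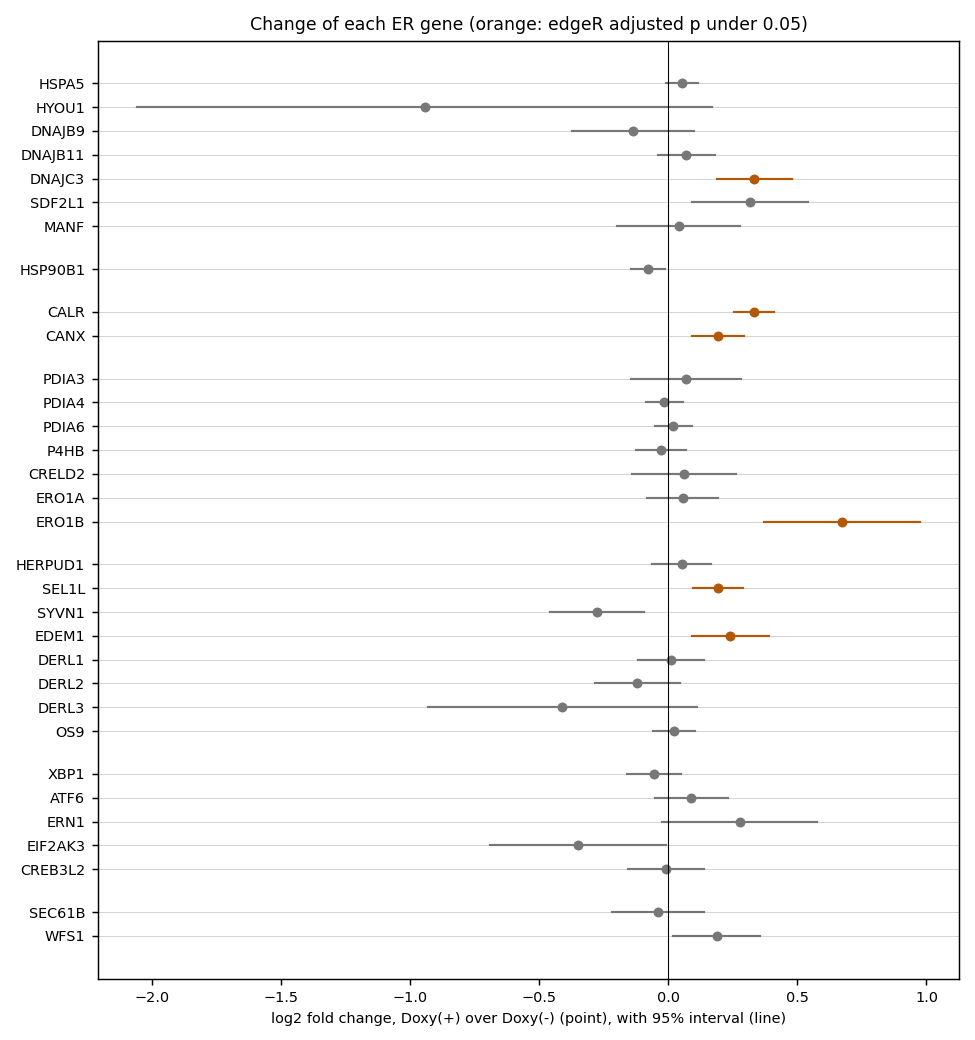
Log2 fold change of each of the 32 genes, Doxy(+) over Doxy(-), as a point with its 95% interval from the edgeR fit as a line, n = 2 libraries per group. The 6 orange genes have an adjusted p under 0.05 and intervals above 0, ERO1B reaches furthest to the right at 0.67, and the widest interval belongs to HYOU1, from -2.06 to 0.17.

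None of the 5 stress sensors and transcription factors passed the test. XBP1, the factor made active by IRE1, had 114.7 and 111.1 CPM without and 108.3 and 109 with doxycycline (-0.06, 95% interval -0.16 to 0.05, adjusted p = 0.425). ATF6 stood at 82.5 and 85.5 against 92.9 and 85.8 CPM (0.09, adjusted p = 0.342), and ERN1, which encodes the kinase and endoribonuclease IRE1, at 21.4 and 18.4 against 22.1 and 26.1 CPM (0.28, adjusted p = 0.178). For both, the sign turned under length scaling and in the TPM tests, to -0.06 for ATF6 and -0.13 for ERN1 with length scaling. EIF2AK3, the gene of the translation-arresting kinase PERK, was the only 1 of the 5 with an unadjusted p under 0.05. Its level was 50.5 and 44.1 CPM in the controls against 31.7 and 42.3 after induction (-0.35, SE 0.140, 95% interval -0.69 to -0.01, adjusted p = 0.142). The induced libraries lay below both controls but far from each other, and the value rested on Doxy(+) 1: it was -0.16 without that library (adjusted p = 0.435) and -0.58, called lower, without Doxy(+) 2 (adjusted p = 0.0313). CREB3L2, a membrane-bound factor processed like ATF6, overlapped at 112.2 to 121.8 CPM (-0.01, 95% interval -0.15 to 0.14). The remaining genes sit in the ER membrane. SEC61B, a small subunit of the translocon, overlapped at 77.5 to 88.4 CPM (-0.04, 95% interval -0.22 to 0.14). WFS1, wolframin, the ER membrane glycoprotein mutated in Wolfram syndrome, stood at 41.7 and 37.6 against 44.9 and 45.3 CPM, with no overlap but no call (0.19, SE 0.0694, adjusted p = 0.119). Without Doxy(-) 1 it was called higher (0.26, adjusted p = 0.0475).

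Activated IRE1 cuts an unconventional intron of 26 bases out of XBP1 mRNA, which shifts the reading frame and yields the active factor, so the total XBP1 count does not show that step. This intron is annotated at chr22:28796128-28796153 (hg38, minus strand, exonic in the unspliced mRNA). It is shown because it is the sequence that separates the annotated models, with the annotated gap in capitals between flanks of 20 bases. The gap begins with G and is followed by g, so the bases that IRE1 excises may be shifted against the capitals.
XBP1 IRE1 intron: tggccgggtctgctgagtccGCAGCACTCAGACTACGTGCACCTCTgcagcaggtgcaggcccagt
The annotated model without these bases, XBP1-202, took 14.7% and 17.2% of XBP1 estimated counts in Doxy(-) 1 and 2 and 21.7% and 12.7% in Doxy(+) 1 and 2. The induced libraries lay on either side of the controls, and no difference was detectable. XBP1-201, a model that keeps the bases, took 70.3% and 61.3% against 49.2% and 74%. These shares are the quantifier's division of reads, not reads across the junction, and the models also differ in length, at 1131 bases for XBP1-202 and 1850 for XBP1-201 in the tables, so they are a weak measure of splicing.

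**Figure D3:**
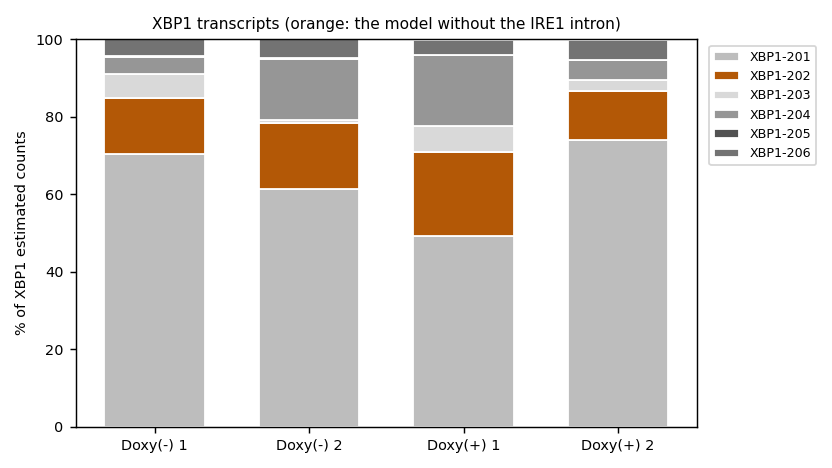
Share of the XBP1 estimated counts, in percent, given to each of the annotated XBP1 models in each of the 4 libraries, as stacked bars. Orange marks XBP1-202, the model without the bases that IRE1 removes, whose induced values of 21.7% and 12.7% lie on either side of the controls.

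Chaperone promoters carry the ER stress element (ERSE), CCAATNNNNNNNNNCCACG, to which NF-Y and ATF6 or XBP1 bind and which was first defined on genes such as HSPA5, HSP90B1 and CALR. Promoter windows of 300 bases, from 250 before to 50 after the start, were read from RefSeq on GRCh38.p14 for 29 of the 32 genes (PDIA3, DERL1 and DERL3 were not matched) and searched on both strands. The windows shown are those of the 3 called genes with the largest log2 fold changes and of HSPA5, which was not called. Capitals mark an ERSE, which reads as its reverse complement in ERO1B and CALR.
ERO1B, chr1:236281909-236282208, minus strand: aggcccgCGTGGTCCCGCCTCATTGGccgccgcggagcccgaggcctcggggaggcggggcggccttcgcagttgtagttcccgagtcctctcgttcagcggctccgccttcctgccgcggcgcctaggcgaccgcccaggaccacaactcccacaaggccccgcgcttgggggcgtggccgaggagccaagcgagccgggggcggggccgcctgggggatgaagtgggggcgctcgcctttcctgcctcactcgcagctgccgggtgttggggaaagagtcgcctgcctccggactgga
DNAJC3, chr13:95676889-95677188, plus strand: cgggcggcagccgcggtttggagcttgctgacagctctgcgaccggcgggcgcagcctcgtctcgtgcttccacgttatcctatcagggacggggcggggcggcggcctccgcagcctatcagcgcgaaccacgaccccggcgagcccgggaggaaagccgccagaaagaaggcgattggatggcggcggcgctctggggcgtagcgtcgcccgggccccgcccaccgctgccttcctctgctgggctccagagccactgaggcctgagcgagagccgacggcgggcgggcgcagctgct
CALR, chr19:12938359-12938658, plus strand: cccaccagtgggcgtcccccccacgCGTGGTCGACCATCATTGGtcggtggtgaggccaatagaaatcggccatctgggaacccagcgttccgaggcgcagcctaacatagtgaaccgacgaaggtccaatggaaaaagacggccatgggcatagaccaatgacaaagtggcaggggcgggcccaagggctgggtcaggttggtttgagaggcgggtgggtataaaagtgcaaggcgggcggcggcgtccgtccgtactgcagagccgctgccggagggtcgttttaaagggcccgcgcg
HSPA5, chr9:125241294-125241593, minus strand: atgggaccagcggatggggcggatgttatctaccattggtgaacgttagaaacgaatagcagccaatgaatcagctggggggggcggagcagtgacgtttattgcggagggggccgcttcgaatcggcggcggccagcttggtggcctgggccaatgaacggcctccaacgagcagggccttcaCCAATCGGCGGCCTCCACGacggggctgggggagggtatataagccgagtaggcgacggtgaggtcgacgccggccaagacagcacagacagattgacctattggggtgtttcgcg
The 29 genes had 36 windows, since some have several starts. The ERSE was found in 10 of those 36 (27.8%), which belong to 8 genes, and in 27 of all 34796 windows (0.0776%). The CANX windows with an ERSE overlap and hold the same site, which is counted in each of them. The ERSE begins 243 bases before the start in ERO1B, 225 in CALR and 66 in HSPA5, and no match lies in the DNAJC3 window. Of the 8, CALR, CANX and ERO1B rose, while HSPA5, HSP90B1, PDIA6, CRELD2 and XBP1 were not called, and the other genes that rose, DNAJC3, SEL1L and EDEM1, had none in these windows. Genes with the same element thus differed in whether they were called.

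The related ERSE-II was found in HYOU1, SDF2L1 and HERPUD1 (8.33% of the 36 windows, 0.0546% of all windows), of which none was called. The core of the unfolded protein response element, TGACGTGG, was found in HYOU1 alone (2.78%, against 0.733% of all windows). The E-box CACGTG, the hexamer contained in sites of TFE3 and its relatives and of many other factors, was found in DNAJB9, HSP90B1, CANX and HERPUD1 (11.1% of the 36 windows, against 7.20% of all windows). The longer TCACGTG, preferred by the TFE3 family, contains that hexamer and was found in DNAJB9 and CANX (5.56%, against 3.67%). In CANX both lie in 1 window, at 1 of its starts. CANX rose and DNAJB9 did not pass the test. A match describes letters in the window and is no evidence of binding, and its absence says nothing of a factor acting elsewhere.

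Beside the 32 genes, 124 other genes of the ER were listed by function in 10 groups, and 123 were tested. Of these 10 rose and 8 fell (8.13% called higher, against the 9.76% of all genes), and 1 passed the fold limit as well. That gene was DDIT3, which encodes CHOP, the pro-apoptotic factor downstream of PERK and ATF4. Its level went from 31.7 and 26.6 CPM to 72.5 and 71.9 (log2 fold change 1.31, SE 0.0855, edgeR adjusted p = 0.000418), and both induced libraries were above both controls. DDIT3 kept its call in all 14 alternatives, and its exons overlap those of MARS1 and MBD6 on the other strand. Of the 8 listed outputs of the PERK arm 3 rose and 2 fell. TRIB3, a pseudokinase that CHOP and ATF4 induce, rose from 180.5 and 160.5 to 233.5 and 232 CPM (0.45, SE 0.0587, adjusted p = 0.00449). The other 3 called genes of that group are named after their values were seen. PPP1R15A (GADD34), which restores translation, rose by 0.19 (adjusted p = 0.0281), while ATF4 itself fell by 0.12 (adjusted p = 0.0347) and ATF3, another stress-induced factor, fell by 0.47 (adjusted p = 0.00825). The group thus did not move in 1 direction, and its median log2 fold change was 0.005.

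Of the 10 other regulators of the response, ATF6B, the paralog of ATF6, rose from 15.5 and 14.1 to 29.1 and 27.6 CPM (0.94, SE 0.0934, adjusted p = 0.0017). Its transcripts have 12 copies among the unmatched identifiers, and adding those left the difference at 0.89. TXNIP, a thioredoxin-binding protein whose mRNA IRE1 and PERK signaling raise, fell from 69.9 and 69.7 to 49 and 50.9 CPM (-0.48, SE 0.0535, adjusted p = 0.00257). Among 20 further disulfide and proline isomerases 1 rose and 2 fell: ERP29, a lumenal thioredoxin-fold chaperone, rose by 0.24 (adjusted p = 0.00533), FKBP10, a collagen prolyl isomerase, fell by 0.29 (adjusted p = 0.0240), and TMX2, named after its value was seen, fell by 0.26 (adjusted p = 0.0275). Of 12 oligosaccharyltransferase genes 2 rose, the subunit RPN2 by 0.15 and the catalytic STT3B by 0.16 (adjusted p = 0.0316 and 0.0422).

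Of 8 receptors that guide ER fragments to autophagy 2 rose, CALCOCO1 by 0.33 (adjusted p = 0.0102) and RETREG2 by 0.32 (adjusted p = 0.0313). In ER calcium handling 1 of 11 tested genes rose and 2 fell. The calcium sensor STIM2 rose by 0.33 (adjusted p = 0.0343), the inositol trisphosphate receptor ITPR1 fell by 0.37 (adjusted p = 0.0254), and its relative ITPR3, named after its value was seen, fell by 0.13 (adjusted p = 0.0435). In the 20 other ERAD genes only AUP1, a lipid droplet and ERAD factor, passed the test and fell by 0.22 (adjusted p = 0.0436), and UBXN4 was at 0.15 (adjusted p = 0.0598). No gene was called among 11 glucosidases and lectin-cycle genes, 7 other Hsp70 partners, and 16 genes of the translocon and signal peptidase. The 2 smallest p-values in each of those groups belonged to EDEM2 at 0.33 and LMAN1 at -0.11, to SIL1 at 0.30 and DNAJB12 at 0.16, and to SEC61A2 at 0.40 and SRPRB at -0.20. Their adjusted p-values lay between 0.0636 and 0.0900. Counts at an unadjusted edgeR p under 0.05 were 2 of 11, 2 of 7 and 3 of 16, beside 4528 of all 13569 tested genes.

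**Figure D4:**
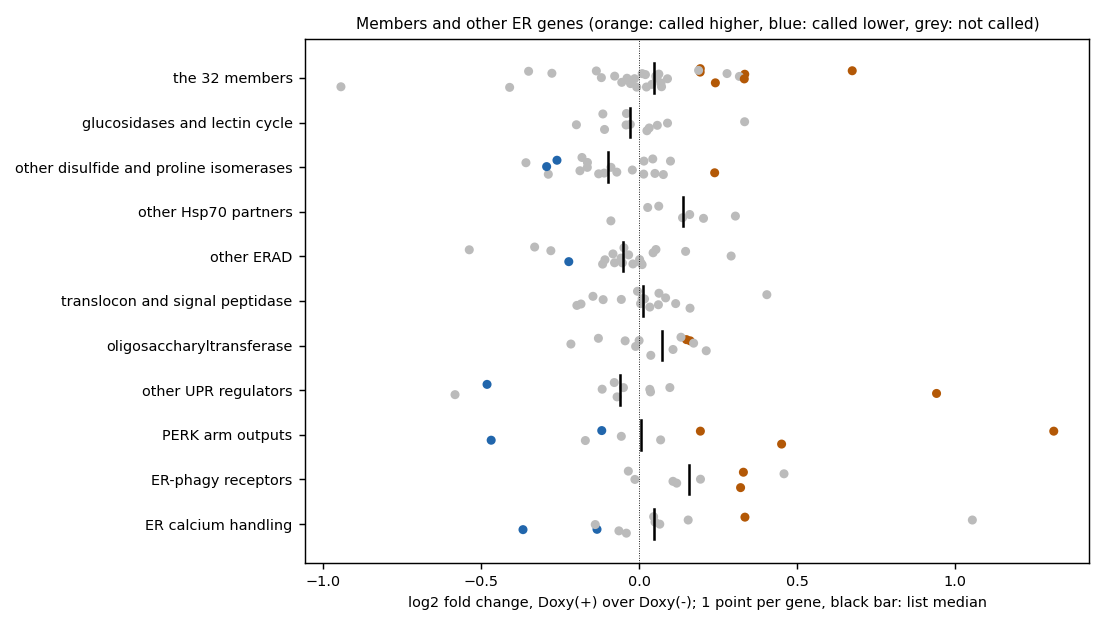
Log2 fold change, Doxy(+) over Doxy(-), of every tested gene of the 32 and of the 10 groups of other ER genes, 1 point per gene, with a black bar at the median of each group. Orange points were called higher and blue points lower by edgeR at an adjusted p under 0.05. DDIT3 lies furthest right at 1.31, and the group medians lie between -0.10 and 0.16.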

How the data were processed

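Polyadenylated RNA of 4 libraries of HK-2 cells, 2 per group, was sequenced after stranded TruSeq library preparation. The methods and the submitters' processing notes name Trim Galore 0.6.6, cutadapt 2.5 and STAR 2.7.9a with hg38, and the methods add RSEM with a UCSC hg38 annotation, whereas the deposited tables have the columns of kallisto and Ensembl identifiers. The version and annotation release behind those tables, and any use of strand, are not given in the sources used here. For each of 180253 transcripts the authors deposited an estimated count, which is not normalized and need not be whole, a TPM summing to 1000000 per library, and lengths, which were the same in every library.

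Transcripts were matched to GENCODE release 44 on hg38. The 29562 unmatched identifiers held 9.66% to 9.89% of counts and were left out. Counts were summed per gene and rounded, scaled by TMM, passed through filterByExpr, and tested by quasi-likelihood (glmQLFit, glmQLFTest) in edgeR 4.0.16 under R 4.3.3, with group as the only term and Benjamini-Hochberg adjustment over all 13569 genes. Genes were called at an adjusted p under 0.05. CPM are given per library, intervals are 95% intervals of the fit, and levels between genes are compared in TPM. The tests were checked on simulated counts. The 32 genes, the other ER lists and the tests were chosen with earlier results of these data known. All 32 were named, with TFE3, the 2 genes of smallest p in each list and any listed gene past the fold limit. Alternatives were DESeq2 1.42.0, limma 3.58.1 on log2(TPM + 1) and log2(TPM + 0.1), RLE factors, other filters and thresholds, length-scaled counts, unmatched copies added, a replicate block and each library left out. Promoters are RefSeq windows on GRCh38.p14. The value of 1 listed marker is not reported here.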

Additional observations from a re-analysis of the deposited data

How the results depend on the processing

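Each gene was recomputed under 14 alternatives. Of 448 values for the 32 genes, 386 kept their direction and their side of the threshold, 27 lost a call, 7 gained one and 28 changed sign. No call changed sign. HYOU1 and PDIA4 lack their reference transcripts, which no alternative supplied.

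Of the 32 genes, those called higher numbered 6, but 1 (3.12%) under limma at either pseudocount and with length-scaled counts, where 4.43% to 4.92% of all genes were called higher, 1 at an adjusted p under 0.01 and 0 under the fold limit. Leaving out 1 library leaves 1 in its group, and the sizes in those fits are given below. Of the 32 genes, those called lower numbered 0, but 1 with RLE factors, no filter or a mean CPM of at least 1 (SYVN1 in each). In those fits 1324, 1454 and 1291 of all genes were called lower. The other ER genes called higher numbered 10, but 6 with length-scaled counts, 4 at an adjusted p under 0.01, 1 under the fold limit and 3 to 13 with a library left out. Those called lower numbered 8, but 1 under both limma settings and length scaling, 2 at 0.01, 0 under the fold limit and 3 to 11 with a library left out. The median log2 fold change of the 32 genes, 0.0458, became 0.0364 without a filter, 0.0619 and 0.0632 under limma, 0.0236 with length scaling and 0.0282 to 0.0456 with a library left out. The cause of these shifts was not tested.

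The replicate number was fitted as a block and gave 6 of the 32 genes higher and 0 lower. It gave 12 and 6 of the other ER genes, and 1282 and 1261 of all genes. Deviations of same-numbered libraries correlated at -0.222 over 9610 genes, and no source says what a number marks. A crossed replicate block, chosen after seeing the data, gave 5 of the 32 genes higher (EDEM1 lost its call) and 1 lower (EIF2AK3). Of all genes it gave 1178 higher and 1133 lower.

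The sign changed in the 2 limma fits for PDIA4 (0.0304, 0.0306), DERL1 (-0.0231, -0.0235), ATF6 (-0.0255, -0.0267), ERN1 (-0.0816, -0.0903), CREB3L2 (0.0659, 0.0681) and SEC61B (0.0033 in both), and with length scaling for DERL1 (-0.0493), ATF6 (-0.0643), ERN1 (-0.1317), CREB3L2 (0.0363) and SEC61A2 (-0.0066). Without a filter DERL1 was at -0.0007. With a library left out the lowest and highest values were -0.0705 and 0.1483 for MANF, -0.0585 and 0.2063 for PDIA3, -0.0000 (below 0 before rounding) and 0.0331 for PDIA6, -0.0799 and 0.0199 for P4HB, -0.0149 and 0.1318 for CRELD2, -0.0092 and 0.1191 for ERO1A, -0.0341 and 0.0488 for DERL1, -0.0679 and 0.0470 for CREB3L2 and -0.1339 and 0.0535 for SEC61B. None of these was called.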
